A study of Mus musculus with 8 samples.

Results

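The genes described here are the mouse genes whose name on the array was Gpr followed by a number, the old placeholder name for G-protein-coupled receptors that had no known ligand, together with Gper1. The array held 132 probes for 93 such genes, out of 27343 genes in all, and 1 probe per gene was used, the one with the highest mean signal. Of these 93 genes, 21 have a newer RefSeq name, which is used here: Gpr30 is now Gper1, Gpr77 is C5ar2, Gpr44 is Ptgdr2, Gpr81 is Hcar1, and 17 are adhesion receptors now named Adgr. They were measured in RAW264.7, a mouse macrophage-like cell line, on 8 one-colour arrays. Cells were left untreated (control), given all-trans retinoic acid (ATRA, which binds retinoic acid receptors), given interleukin-13 (IL-13, a cytokine of alternative macrophage activation), or given both. Each treatment had 1 array at 12 h and 1 array at 24 h, with no doses in the labels, and all cells were the same line in the same serum-containing medium. The labels call the control and ATRA cells unpolarized, the IL-13 cells M2 and the cells given both agents suppressed in M2 polarization.

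G-protein-coupled receptors span the membrane repeatedly and signal through heterotrimeric G proteins, and their signalling is ended by receptor kinases and arrestins. Those that macrophages carry sense lysolipids, oxysterols, fatty acids, other metabolites, protons and complement fragments. Some proteins with a Gpr name lie in the Golgi apparatus or in lysosomes, and whether they act as receptors is unclear.

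All values are log2 of the signal after each array was scaled to its 75th percentile, and differences are on that log2 scale, so that 1 unit is 2-fold. A gene was tested if, in some treatment, both arrays flagged its probe as well above background. A gene was called, and is said to have risen or fallen, at a limma p below 0.05 after Benjamini-Hochberg adjustment over all 15440 genes tested. Errors after ± are limma standard errors. In refits without 1 array, the array left alone in its treatment is taken to vary like the other groups. The spread in this test is how far the change from 12 h to 24 h differed among the treatments, since no treatment was repeated at the same time. A change from 12 h to 24 h that all treatments shared is taken up by the time term and is not part of that spread. The 12 h arrays lay on one slide and the 24 h arrays on the other, so that slide and time are confounded and cannot be told apart. The labels do not say that cultures were separate, so p-values cover the spread between arrays, which may be technical.

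The line carried all 9 macrophage markers on the array well above background on all 8 arrays. Of markers of other cell types, 3 of 7 for T cells (Cd3e, Cd4 and Lck), 0 of 5 for B cells and 1 of 5 for fibroblasts were well above background on all 8 arrays, and 0 of 5 for epithelium were on any. Cd3g, Cd8a, Pax5 and 4 of the 5 fibroblast markers were well above background on 0 arrays, and 0 of the tested T cell, B cell and fibroblast markers were called in any treatment comparison. Of the macrophage markers, Adgre1 rose with IL-13 by 1.06 ± 0.13 (limma adjusted p = 0.0394) and with both agents by 0.83 ± 0.13 (0.0273), Ptprc fell with both by 0.70 ± 0.14 (0.0413), and Fcgr3 was lower with both than with IL-13 alone, by a difference of -1.18 ± 0.15 (0.0302). Their part in the results below was not tested. As checks of the treatments, Cish and Mrc1, targets of IL-13 signalling, rose with IL-13, Cish at least 173-fold (adjusted p = 0.00182), from control arrays not well above background, and Mrc1 by 5.19 ± 0.38 (adjusted p = 0.0176). Rarb and Dhrs3, targets of retinoic acid, rose with ATRA by 1.81 ± 0.18 (adjusted p = 0.0239) and 2.72 ± 0.19 (adjusted p = 0.0111), and Dhrs3 also rose with IL-13 alone by 1.51 ± 0.19 (adjusted p = 0.0401). With both agents against IL-13 alone, the check gene Arg1 was higher by 5.47 ± 0.50 (limma adjusted p = 0.0168). Cish differed by -0.04 ± 0.26 (adjusted p = 0.957) and Mrc1 by -1.64 ± 0.38 (adjusted p = 0.101). Whether the arrays bear out the labels' terms for polarization was not tested. Between 54.1% and 61.4% of the probes of an array were well above background.

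Few of these receptor genes were measurable in the line. Of the 93, 35 were tested (37.6%, against 56.5% of all genes), 26 were well above background on all 8 arrays, and 44 were well above background on 0 arrays with any probe. By treatment, 33 were well above background on both control arrays, 34 on both ATRA arrays, 26 on both IL-13 arrays and 30 on both arrays of IL-13 with ATRA. As shares of the 35 these are 94.3%, 97.1%, 74.3% and 85.7%, against 97.8%, 94.7%, 91.4% and 92.0% of all tested genes. Of the 9 genes missed with IL-13, 7 were missed on the 12 h array only, which had the lowest share of probes well above background of the 8 arrays (54.1%) and the highest limit (3.68). The other 14 untested genes, among them Adgra2, Adgrd1, Adgrf1, Adgrf2, Adgrf5, Gpr22, Gpr37, Gpr45, Gpr62, Gpr119, Gpr135, Gpr137c and Gpr139, were well above background on some array of some probe. The Golgi and lysosomal proteins were tested in 7 of 8 cases, and the receptors known mainly from nervous tissue or without a ligand in 13 of 38. The adhesion class was tested in 4 of 17 cases and the constitutively active receptors that raise cyclic AMP (Gpr3, Gpr6 and Gpr12) in 0 of 3.

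**Figure D1:**
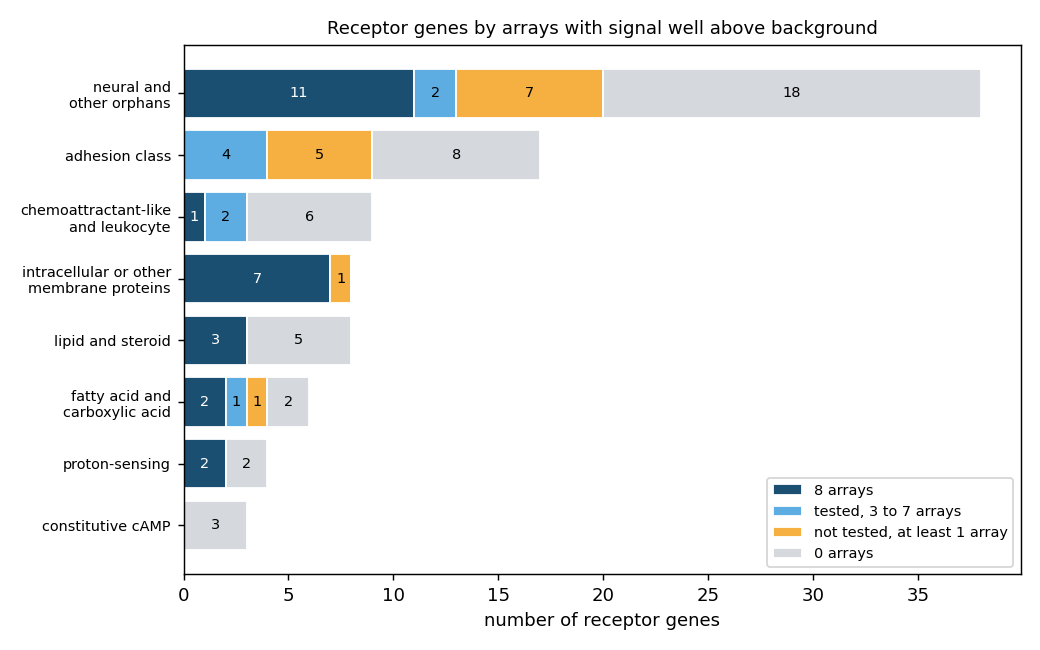
Number of receptor genes (x axis) in each functional class (y axis), split by whether the signal was well above background on 8 arrays, on fewer but enough to be tested, on at least 1 array of any probe without being tested, or on 0 arrays. All 7 tested Golgi and lysosomal proteins were detected on 8 arrays, and 0 of the 17 adhesion receptors were.

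Among the 35 tested genes, 9 were called in at least 1 of the 5 treatment comparisons and 26 in 0, where 9.4% of all genes were called in at least 1. With no filter on dim probes 0 of these calls were made. Few calls were then left over all genes too: with both agents against control, 22 of 27321 rose and 6 fell. With IL-13 alone, 2 fell against control (Gper1 and Gpr179) and 0 rose, where 0.589% of all genes tested fell, 0.687% rose and 1.28% were called in all. At an unadjusted p below 0.05 there were 8 of the 35 (23.9% of all genes). With ATRA alone, 2 rose (Gpr160 and Gpr65, background 0.881%) and 1 fell (Gper1, background 0.92%), together 3 of 35 against 1.8% of all genes, and 11 of 35 had an unadjusted p below 0.05 (15.2%). With both agents, 4 rose (C5ar2, Gpr160 and Gpr65 among them, background 3.01%) and 4 fell (Gper1, Gpr137b, Gpr179 and Gpr183, background 5.45%), which is 22.9% of the 35 against 8.45% of all genes, and 12 of 35 had an unadjusted p below 0.05 (28.2%). When both agents were set against IL-13 alone, 1 was higher (Gpr160, background 1.1%) and 1 lower (Gpr158, background 1.48%; 2.58% in either direction), with 11 of 35 at an unadjusted p below 0.05 (19.1% of all genes). Between IL-13 with ATRA and ATRA alone, limma called 0 of 35 genes (background 0.363%), with 6 at an unadjusted p below 0.05 (13% of all genes). The 3 comparisons with control share the same 2 control arrays. The median difference of the 35 genes lay close to 0 in each comparison, for example 0.06 with ATRA beside -0.02 for all genes, while the median size of a difference was 0.29 beside 0.16.

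**Figure D2:**
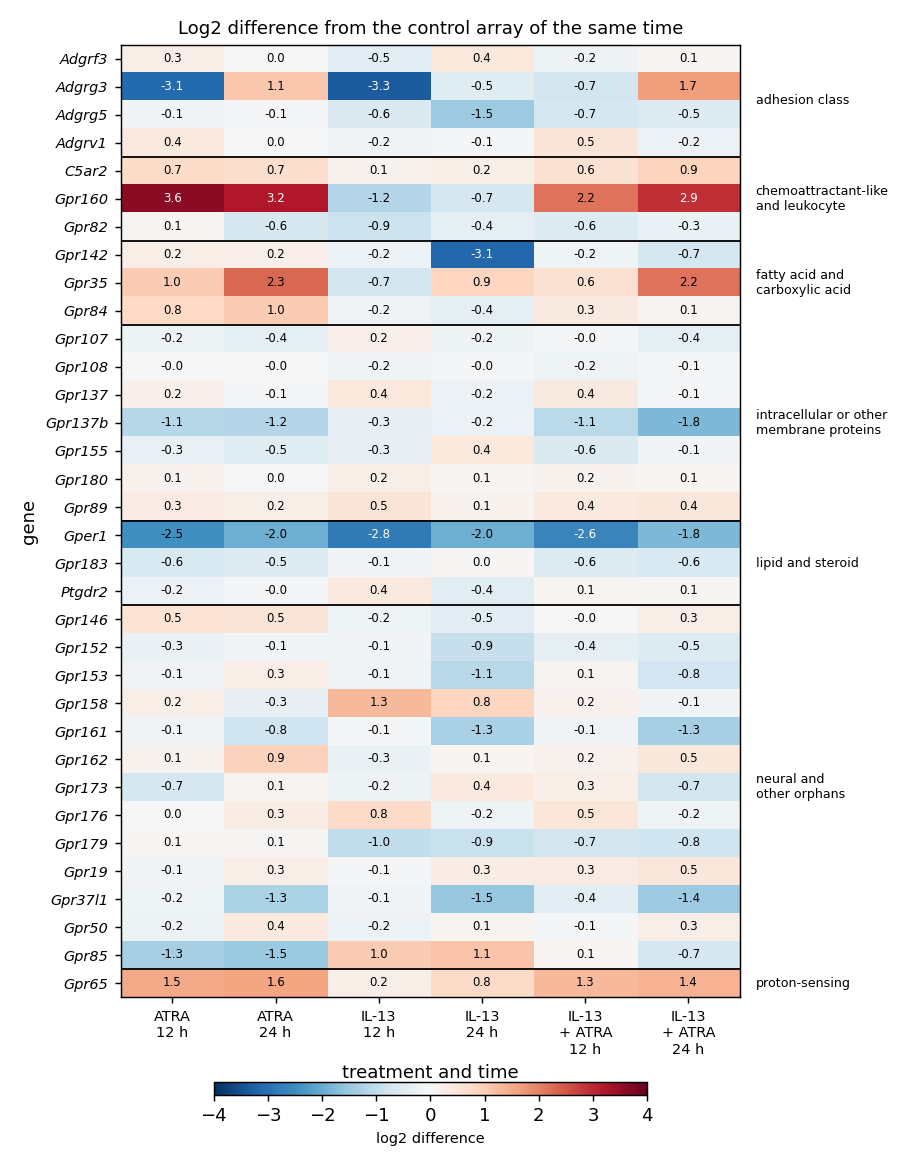
Log2 difference of 34 tested genes (rows, grouped by class) from the control array of the same time, for ATRA, IL-13 and IL-13 with ATRA at 12 h and 24 h (columns); red is higher and blue lower than control. Gper1 is blue in all 6 columns, Gpr160 and Gpr65 are red in the 4 columns with ATRA, and Gpr85 is blue with ATRA and red with IL-13 alone.

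Promoter sequences are shown for 4 genes called with ATRA or with both agents (Gper1, Gpr160, Gpr65 and C5ar2) and for Gpr84 and Gpr85, uncalled genes with large differences under ATRA. They are the 250 bases before the RefSeq start site on assembly GRCm38.p6, read 5′ to 3′ on the gene's strand, at chr5:139422929-139423178 (plus strand), chr3:30855700-30855949 (plus), chr12:98268385-98268634 (plus), chr7:16244155-16244404 (minus, the upstream one of 2 start sites), chr15:103310439-103310688 (minus) and chr6:13839943-13840192 (minus). Capitals mark a match, on either strand, to AGGTCA or AGTTCA, forms of the half-site bound by retinoic acid receptors, or to TTCNNNGAA or TTCNNNNGAA, the palindromes bound by STAT proteins, the second being the form that STAT6 prefers.
Gper1: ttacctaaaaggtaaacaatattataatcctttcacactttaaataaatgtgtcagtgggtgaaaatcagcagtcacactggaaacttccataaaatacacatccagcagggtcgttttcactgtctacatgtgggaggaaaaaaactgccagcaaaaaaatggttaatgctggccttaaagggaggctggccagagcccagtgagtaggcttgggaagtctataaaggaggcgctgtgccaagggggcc
Gpr160: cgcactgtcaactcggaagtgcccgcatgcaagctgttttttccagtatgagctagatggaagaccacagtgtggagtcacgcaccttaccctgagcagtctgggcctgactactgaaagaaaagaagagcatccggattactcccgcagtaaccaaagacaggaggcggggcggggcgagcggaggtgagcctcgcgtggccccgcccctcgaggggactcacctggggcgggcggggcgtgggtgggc
Gpr65: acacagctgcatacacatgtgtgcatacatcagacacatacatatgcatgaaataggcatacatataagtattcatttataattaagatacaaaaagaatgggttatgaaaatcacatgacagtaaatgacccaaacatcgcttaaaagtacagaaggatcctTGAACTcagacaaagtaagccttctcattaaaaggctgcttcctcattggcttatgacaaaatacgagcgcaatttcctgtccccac
C5ar2: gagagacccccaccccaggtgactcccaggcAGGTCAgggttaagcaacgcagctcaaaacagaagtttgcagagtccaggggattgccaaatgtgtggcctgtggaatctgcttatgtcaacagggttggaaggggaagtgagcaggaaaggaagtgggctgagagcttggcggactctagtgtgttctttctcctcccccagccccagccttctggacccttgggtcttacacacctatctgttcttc
Gpr84: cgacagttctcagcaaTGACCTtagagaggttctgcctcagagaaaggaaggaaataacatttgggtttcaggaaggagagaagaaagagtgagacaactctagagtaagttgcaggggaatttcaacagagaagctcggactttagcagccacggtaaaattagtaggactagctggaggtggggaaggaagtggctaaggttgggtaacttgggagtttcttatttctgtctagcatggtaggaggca
Gpr85: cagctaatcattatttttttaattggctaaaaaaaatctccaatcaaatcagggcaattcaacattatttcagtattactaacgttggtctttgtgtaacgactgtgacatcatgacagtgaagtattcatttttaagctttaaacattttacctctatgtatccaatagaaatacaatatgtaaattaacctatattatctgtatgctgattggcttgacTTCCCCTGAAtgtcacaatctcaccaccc
Gpr65 held TGAACT, the reverse complement of AGTTCA, starting 87 bases before its start site, C5ar2 held AGGTCA starting 219 bases before, Gpr84 held TGACCT, the reverse complement of AGGTCA, starting 234 bases before, and Gpr85 held TTCCCCTGAA starting 29 bases before. The Gper1 and Gpr160 stretches held no match. The other window of C5ar2, not shown, held a match to TTCNNNNGAA. The windows of Gpr158, Gpr179 and Gpr183, also called genes and not shown, held no match. Gpr137b, another called gene, had no window. The genes shown were thus not all the called genes, and their matches are not a rate among called genes. RefSeq gave 43 promoter windows (250 bases before to 50 after the start) for 30 of the 35 tested genes. Of these windows, 23.3% held AGGTCA, 9.3% AGTTCA, 2.33% TTCNNNGAA and 11.6% TTCNNNNGAA, against 16.3%, 14.0%, 8.3% and 6.95% of all 32851 windows. These motifs are short and common, and a match describes letters only.

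Receptors for lipids and steroids were 3 tested genes of 8. Gper1, the membrane receptor for estrogen, was high in control cells and low under every treatment. Its signal (probe at chr5:139903348-139903407, mm9, plus strand) was 8.15 and 7.51 in control cells at 12 h and 24 h. It was 5.70 and 5.56 with ATRA, 5.31 and 5.56 with IL-13, and 5.52 and 5.71 with both. Both control arrays lay above all 6 treated arrays, and the treated arrays overlapped one another. Gper1 fell by 2.20 ± 0.24 with ATRA (4.60-fold, limma adjusted p = 0.0277), by 2.40 ± 0.24 with IL-13 (5.26-fold, adjusted p = 0.0283) and by 2.22 ± 0.24 with both (4.65-fold, adjusted p = 0.0111). The combination differed from IL-13 alone by 0.18 (95% interval -0.42 to 0.78) and from ATRA alone by -0.02 (interval -0.61 to 0.58). The departure from additive effects was 2.38 ± 0.34, with an unadjusted limma p of 0.000626 that did not pass adjustment (adjusted p = 0.547). In 8 refits that each left out 1 array, the call with both agents was lost only without either array of the combination (adjusted p up to 0.0668). The call with ATRA was lost without any array of control, ATRA or the combination (up to 0.177), and the call with IL-13 in every refit but the one without the IL-13 array at 12 h (up to 0.115). The IL-13 call was also lost when only the arrays compared were fitted, and with normexp background correction the 3 differences stayed called at -1.34, -1.43 and -1.29.

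Gpr183, the receptor for dihydroxylated cholesterols (oxysterols) that guides leukocyte movement, had a signal of 13.74 and 13.48 in control cells at 12 h and 24 h. The values were 13.14 and 12.98 with ATRA, 13.62 and 13.52 with IL-13 and 13.18 and 12.86 with both (probe at chr14:122353099-122353158, mm9, minus strand). The 4 arrays with ATRA lay below the 4 without it. Gpr183 fell by 0.59 ± 0.11 with both agents (1.51-fold, limma adjusted p = 0.0395), while the difference with ATRA alone was -0.55 ± 0.11 (adjusted p = 0.0912). With IL-13 alone it was -0.04 (95% interval -0.32 to 0.24). The call was lost in 6 of 8 refits without 1 array, those without an array of control, ATRA or the combination (adjusted p up to 0.225), and under 4 of 11 other settings, among them the fit without the time term. Of the enzymes that make or clear its ligands, Ch25h and Cyp7b1 were below the filter, Cyp27a1 fell with both agents by 0.79 ± 0.16 (adjusted p = 0.0461), and Hsd3b7 differed by -0.96 ± 0.20 (adjusted p = 0.05003). Ptgdr2, the prostaglandin D2 receptor also called CRTH2, ranged from 6.01 to 6.67 over the 8 arrays and was called in 0 comparisons. Gpr17, Gpr18, Gpr34, Gpr55 and Gpr174 were well above background on 0 arrays.

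Of the chemoattractant-like and leukocyte receptors, 3 of 9 were tested, and they held the largest increase among the 35 genes. Gpr160, long an orphan receptor, had a signal of 3.89 and 4.29 in control cells at 12 h and 24 h and of 7.50 and 7.49 with ATRA (probe at chr3:30795873-30795932, mm9, plus strand). It was 2.70 and 3.62 with IL-13, where 1 of 2 arrays was well above background, and 6.06 and 7.21 with both. All 4 arrays with ATRA lay above all 4 without it. Gpr160 rose by 3.41 ± 0.29 with ATRA against control (10.6-fold, limma adjusted p = 0.0174), by 2.54 ± 0.29 with both agents against control (5.83-fold, adjusted p = 0.0121) and by 3.47 ± 0.29 with both against IL-13 alone (11.1-fold, adjusted p = 0.0151). In the last comparison 1 of the 2 IL-13 arrays was not well above background. With normexp background correction the 3 differences stayed called but were smaller, at 1.69, 1.15 and 1.28. The difference with IL-13 alone was -0.93 ± 0.29 (adjusted p = 0.156), and the departure from additive effects was 0.07 (95% interval -0.97 to 1.10). Without 1 array, the ATRA call was lost in 3 of 8 refits (either control array or the 12 h ATRA array, adjusted p up to 0.164). The call with both agents was lost in 3 (either control array or the 24 h combination array, up to 0.085), and the call against IL-13 in 2 (the 24 h IL-13 or the 24 h combination array, up to 0.0824).

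C5ar2, the second receptor for the complement fragment C5a, signals little through G proteins by textbook accounts. Its signal was 8.60 and 8.44 in control cells at 12 h and 24 h, 9.32 and 9.15 with ATRA, 8.74 and 8.68 with IL-13 and 9.21 and 9.34 with both (probe at chr7:16820101-16820160, mm9, minus strand). Again the 4 arrays with ATRA lay above the 4 without. C5ar2 rose by 0.75 ± 0.12 with both agents (1.68-fold, limma adjusted p = 0.0282), and the difference with ATRA alone was 0.71 ± 0.12 (adjusted p = 0.0642). The call was lost in 6 of 8 refits without 1 array, those without an array of control, ATRA or the combination (adjusted p up to 0.168), and when only the arrays compared were fitted. Gpr82, an orphan receptor, ranged from 2.58 to 3.62 and was well above background on both arrays in control cells only, on 1 of 2 with ATRA or IL-13 and on 0 with both. It was at least 1.08-fold higher in control cells than with both agents (limma adjusted p = 0.421). Gpr1, Gpr15, Gpr33, Gpr141 and Gpr171 were well above background on 0 arrays.

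Gpr65, a proton-sensing receptor that is activated by a fall in extracellular pH and raises cyclic AMP, had a signal of 10.73 and 10.64 in control cells at 12 h and 24 h, 12.24 and 12.21 with ATRA, 10.96 and 11.42 with IL-13 and 12.03 and 12.05 with both (probe at chr12:99514727-99514786, mm9, plus strand). The 4 arrays with ATRA were above the 4 without, and both IL-13 arrays lay between those and control. Gpr65 rose by 1.54 ± 0.17 with ATRA (2.90-fold, limma adjusted p = 0.0277) and by 1.35 ± 0.17 with both agents (2.56-fold, adjusted p = 0.0144). Its difference with IL-13 alone was 0.50 ± 0.17 (adjusted p = 0.168), and with both against IL-13 alone 0.85 ± 0.17 (adjusted p = 0.0732). The combination differed from ATRA alone by -0.18 (95% interval -0.60 to 0.24). The ATRA call was lost in 6 of 8 refits without 1 array, those without an array of control, ATRA or the combination (adjusted p up to 0.197), and the call with both agents in 4, those without an array of control or the combination (up to 0.0907).

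**Figure D3:**
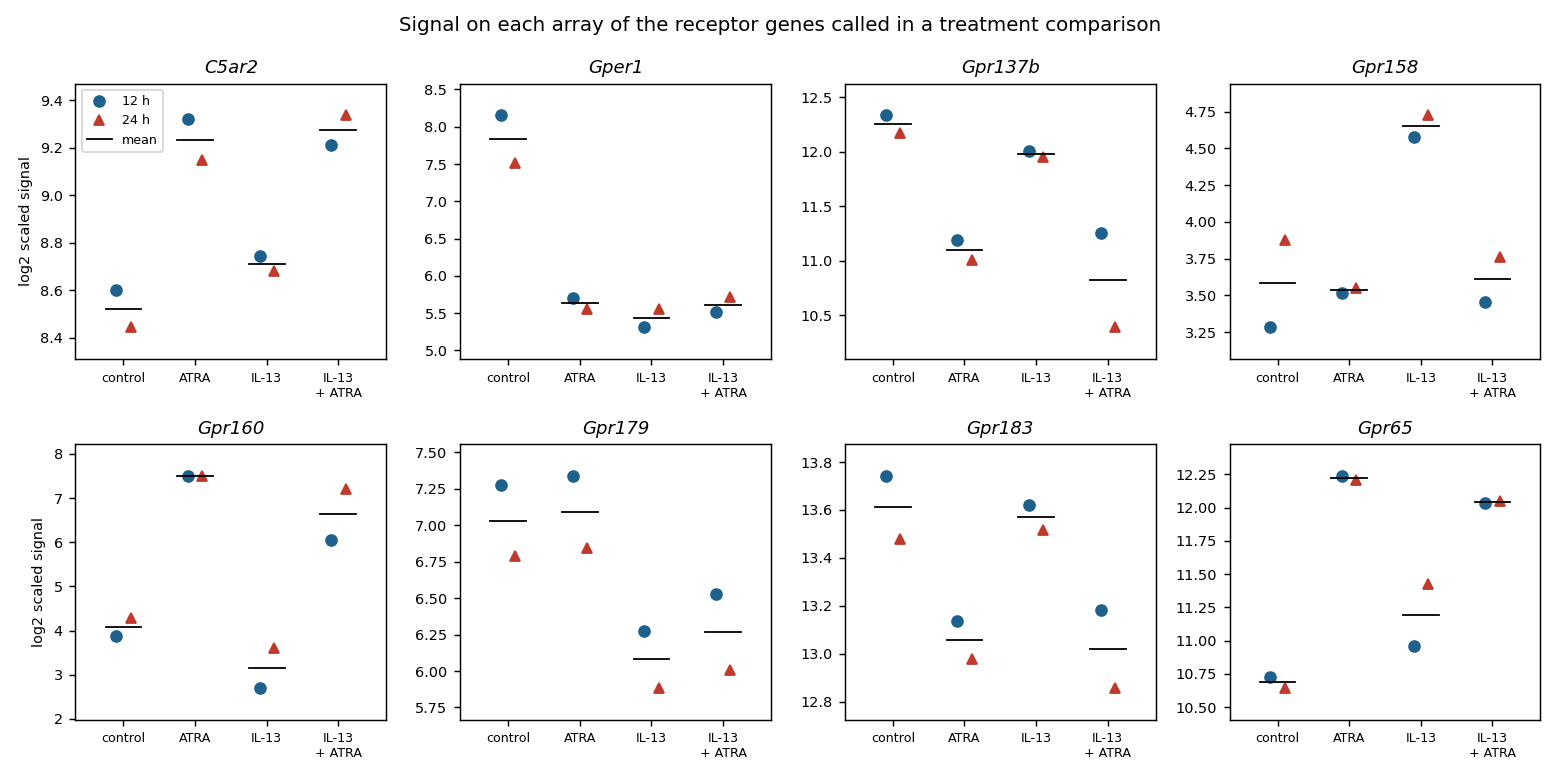
Scaled log2 signal (y axis, its range differing by panel) of 8 called genes on each array, by treatment (x axis), with circles for 12 h, triangles for 24 h and a line at the mean of both. Gpr160, Gpr65 and C5ar2 are higher and Gpr183 and Gpr137b lower on all 4 arrays with ATRA, Gpr179 is lower on all 4 arrays with IL-13, and Gper1 is highest on the 2 control arrays. The genes were chosen by their calls on these arrays, so this separation is not separate evidence. The share of all genes whose arrays separate in this way was not counted, here or in the text.

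Of the fatty acid and carboxylic acid receptors, 3 of 6 were tested and 0 were called. Gpr84, a receptor for medium-chain fatty acids found on activated macrophages, had a signal of 13.09 and 13.04 in control cells at 12 h and 24 h, 13.89 and 14.07 with ATRA, 12.93 and 12.68 with IL-13 and 13.44 and 13.16 with both (probe at chr15:103138824-103138883, mm9, minus strand). Both ATRA arrays were above the other 6. The difference with ATRA was 0.92 ± 0.15 and missed the threshold (limma adjusted p = 0.0585), although 7 of 11 other settings called it (adjusted p 0.0102 to 0.279 over the 11), and that of the combination from ATRA alone was -0.68 ± 0.15 (adjusted p = 0.186). Gpr35, a receptor for kynurenic acid and other acids, was well above background on both arrays with ATRA only, on 1 of 2 with both agents and on 0 of 4 without ATRA. Its signal was 2.98 and 1.47 in control cells, 4.01 and 3.76 with ATRA, 2.23 and 2.33 with IL-13 and 3.59 and 3.62 with both (probe at chr1:94881911-94881970, mm9, plus strand). The 4 arrays with ATRA were above the 4 without. Counted from the limit of detection, Gpr35 was at least 1.82-fold higher with ATRA than in control cells (adjusted p = 0.137). Without the 12 h control array the fitted differences of ATRA and of both agents from control passed (adjusted p = 0.045 and 0.0321), but they then rest on a single control array that is itself below background. The gene entered the test only through ATRA, where it is high. Its second probe was well above background on 0 arrays.

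Gpr142, a receptor for aromatic amino acids such as tryptophan, had 1 array far from the rest. Its signal was 5.97 and 5.94 in control cells at 12 h and 24 h, 6.20 and 6.14 with ATRA, 5.75 and 2.80 with IL-13 and 5.81 and 5.22 with both (probe at chr11:114667906-114667965, mm9, plus strand). The 24 h IL-13 array stood far below the other 7. That array was also the lowest for some other probes, such as a dimmer probe of Gpr107 (3.76), Cd3e (4.76) and Col1a2 (3.24). It was the highest for others, such as Gpr158 (4.72) and Gpr173 (5.20). Whether the low Gpr142 value belongs to the array or to the treatment was not tested. The difference with IL-13 was -1.68 ± 0.74 (limma adjusted p = 0.236), and without the 12 h IL-13 array it was -3.04 (adjusted p = 0.0303) and that of the combination from IL-13 alone was 2.60 (adjusted p = 0.0291). Both of these values rest on the 24 h IL-13 array alone, taken to vary like the other groups. Gpr31b and Hcar1, the lactate receptor, were well above background on 0 arrays, and Gpr119 was below the filter.

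Of the proteins placed in the Golgi apparatus, lysosomes or other membranes, 7 of 8 were tested and 1 was called. Gpr137b, a lysosomal membrane protein, had a signal of 12.33 and 12.17 in control cells at 12 h and 24 h, 11.19 and 11.01 with ATRA, 12.01 and 11.95 with IL-13 and 11.25 and 10.39 with both (probe at chr13:13450893-13450952, mm9, minus strand). The 4 arrays with ATRA lay below the 4 without. Gpr137b fell by 1.43 ± 0.22 with both agents (2.70-fold, limma adjusted p = 0.024). The differences of ATRA from control and of the combination from IL-13 alone were both -1.16 ± 0.22 (adjusted p = 0.0776 and 0.0699), and the departure from additive effects was 0.00 (95% interval -0.78 to 0.78). The call was lost in 5 of 8 refits, those without an array of control or ATRA or without the 24 h combination array (adjusted p up to 0.124). The other 6, Gpr89 (a Golgi pH regulator), Gpr107, Gpr108, Gpr137, Gpr155 and Gpr180, ranged over the 8 arrays by 0.23 (Gpr180) to 0.91 (Gpr155) on the probe used. Probes of Gpr107, Gpr137 and Gpr155 gave unlike differences with IL-13, such as 0.00, -0.35 and -1.43 for 3 probes of Gpr107. For Gpr155 they were 0.05 on the probe used and 0.81 on another. With both agents against control, the probe used for Gpr107 gave -0.22 and its second probe -0.91. These second probes were well above background on all 8 arrays. Gpr137c, the eighth, was below the filter.

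Among the 38 neural and other orphan receptors, 13 were tested and 2 were called, Gpr179 and Gpr158, both known from the retina and brain. Gpr179 had a signal of 7.27 and 6.79 in control cells at 12 h and 24 h, 7.34 and 6.84 with ATRA, 6.28 and 5.88 with IL-13 and 6.52 and 6.01 with both (probe at chr11:97193791-97193850, mm9, minus strand). The 4 arrays with IL-13 lay below the 4 without. Gpr179 fell by 0.95 ± 0.10 with IL-13 (1.93-fold, limma adjusted p = 0.0318) and by 0.77 ± 0.10 with both agents (1.70-fold, adjusted p = 0.018). A second probe of the gene, dimmer but well above background on all 8 arrays, gave -0.28 and 0.07 for the same differences. The first call was lost in all 8 refits without 1 array (adjusted p 0.0542 to 0.167), and the second in 6, those without an array of control, ATRA or the combination (up to 0.127). Each was also lost under 6 of 11 other settings, among them normexp background correction (differences of -0.60 and -0.39), the mean of all probes and the fit without the time term.

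Gpr158 had a signal of 3.28 and 3.88 in control cells at 12 h and 24 h, 3.52 and 3.55 with ATRA, 4.57 and 4.72 with IL-13 and 3.45 and 3.76 with both (probe at chr2:21570586-21570645, mm9, plus strand). Both IL-13 arrays were above the other 6. The difference of both agents from IL-13 alone was -1.04 ± 0.16 (2.06-fold, limma adjusted p = 0.0449), and its difference with IL-13 was 1.07 ± 0.16 (adjusted p = 0.0561). The departure from additive effects was -0.99 ± 0.23 (adjusted p = 0.935). This call was lost in all 8 refits without 1 array (adjusted p 0.0646 to 0.246) and under 8 of 11 other settings, and the signals are close to background. With normexp background correction the difference was -0.12 (adjusted p = 0.737).

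Gpr85, a highly conserved brain receptor also called SREB2, differed from control in opposite directions under the 2 agents but was not called. Its signal was 6.21 and 6.43 in control cells at 12 h and 24 h, 4.89 and 4.96 with ATRA, 7.24 and 7.56 with IL-13 and 6.30 and 5.75 with both (probe at chr6:13785613-13785672, mm9, minus strand). Both ATRA arrays were lowest, both IL-13 arrays highest, and the combination overlapped control. The difference was -1.40 ± 0.23 with ATRA (limma adjusted p = 0.0583), 1.08 ± 0.23 with IL-13 (adjusted p = 0.096) and -0.30 (95% interval -0.87 to 0.28) with both. Gpr85 was at least 2-fold lower with ATRA at both times and at least 2-fold higher with IL-13 at both times. The combination differed from IL-13 alone by -1.38 ± 0.23 (adjusted p = 0.0518) and from ATRA alone by 1.10 ± 0.23 (adjusted p = 0.172). The ATRA difference passed without either combination array (adjusted p = 0.0491 in both refits) and under 5 of 11 other settings (0.0177 to 0.264 over the 11), and was -0.68 with normexp background correction. The difference from IL-13 alone likewise passed under 5 of 11.

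Gpr37l1, a receptor of glial cells, had a signal of 5.99 and 7.29 in control cells at 12 h and 24 h, 5.81 and 6.02 with ATRA, 5.87 and 5.78 with IL-13 and 5.58 and 5.85 with both (probe at chr1:137057746-137057805, mm9, minus strand). The 24 h control array stood above the other 7, and the difference with both agents was -0.93 ± 0.33 (limma adjusted p = 0.149). The other 9 tested genes of the class were Gpr19, Gpr50, Gpr146, Gpr152, Gpr153, Gpr161, Gpr162, Gpr173 and Gpr176, all uncalled. Gpr146, whose probe at chr5:139869523-139869582 (mm9) lies near that of Gper1, was chosen here for that position after its values were seen. It read 9.50 and 9.57 in control cells, 10.04 and 10.09 with ATRA, 9.32 and 9.11 with IL-13 and 9.47 and 9.84 with both, with a difference of 0.53 ± 0.16 with ATRA (adjusted p = 0.206). Thus both ATRA arrays were above the other 6 for Gpr146, while for Gper1 both were below control.

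The adhesion class, which has long extracellular parts, had 4 tested genes, and 0 were called. Adgrg3, formerly Gpr97 and known from granulocytes, had a signal of 6.60 and 3.63 in control cells at 12 h and 24 h, 3.50 and 4.72 with ATRA, 3.26 and 3.16 with IL-13 and 5.88 and 5.30 with both (probe at chr8:97568989-97569048, mm9, plus strand). The control arrays lay far apart, with both combination arrays and 1 ATRA array between them. Both combination arrays were above both IL-13 arrays, with a difference of 2.38 ± 0.93 (limma adjusted p = 0.255). Adgrg5, whose probe lies near it on the same chromosome, was well above background on both control and both ATRA arrays and on 0 of 4 arrays with IL-13. It was at least 1.67-fold lower with IL-13 than in control cells (adjusted p = 0.129). Adgrf3 and Adgrv1 ranged from 3.22 to 4.03 and from 2.93 to 3.82.

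**Figure D4:**
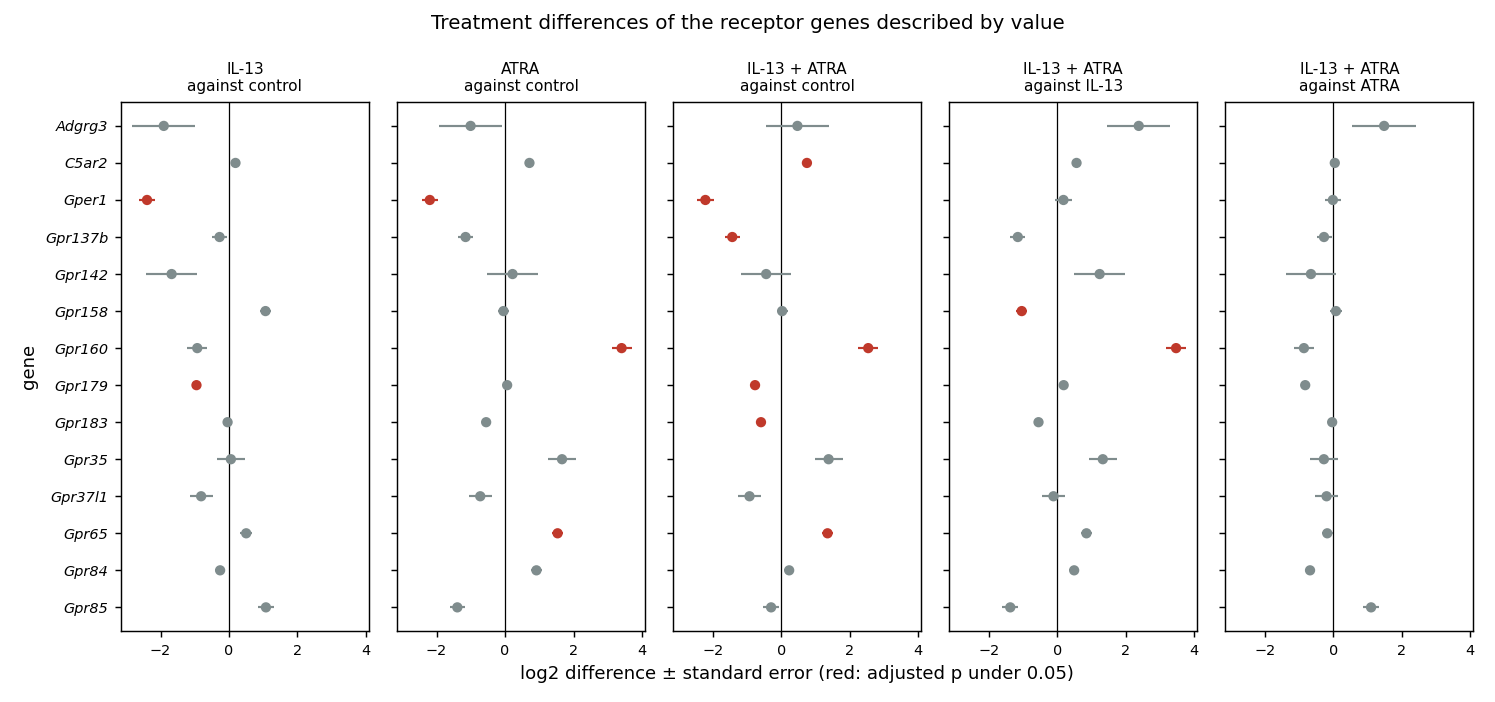
Log2 difference (x axis) with limma's standard error as a bar, for the 14 genes described on every array (rows) in 5 treatment comparisons (panels), red where the adjusted p was under 0.05. In the panel of IL-13 with ATRA against ATRA 0 points are red, and the widest bars are those of Adgrg3 and Gpr142.

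Tests of time gave 0 calls. Between 24 h and 12 h limma called 0 of the 35 genes and 0 of all genes (background 0%), with 5 of 35 genes at an unadjusted p below 0.05 (12.2% of all genes). Gpr179 had the smallest p among the 35, with a difference of -0.47 ± 0.07 (adjusted p = 0.314). A change of the IL-13 effect from 12 h to 24 h was called for 0 genes (background 0%), with 7 of the 35 at an unadjusted p below 0.05 (9.93% of all genes). A change of the ATRA effect was likewise called for 0 genes (background 0%), with 1 of the 35 at an unadjusted p below 0.05 (9.53%). The fit for these changes of effect left 1 residual degree of freedom. Its 0 calls therefore do not show that the effects were the same at both times. For the departure from additive effects of the 2 agents, 0 of the 35 were called (background 0.0194%), and 4 had an unadjusted p below 0.05 (3.67% of all genes): Gper1, Gpr158, Gpr65 and Adgrg3. Counted by size of the measured signal with no test, at least 2-fold at both times, 3 genes were higher with ATRA (Gpr160, Gpr35 and Gpr65, background 1.04%) and 3 genes were lower (Gper1, Gpr137b and Gpr85, background 1.56%). With IL-13, Gpr85 was higher (background 1.31%) and Gper1 lower (background 1.59%) by that measure. With both agents, Gpr160 and Gpr65 were higher (background 1.58%) and Gper1 and Gpr137b lower (background 2.94%) than control. Against IL-13 alone, the combination had Adgrg3, Gpr160 and Gpr35 higher (background 1.15%) and 0 lower (background 1.61%), and against ATRA alone 0 higher (background 0.803%) and 0 lower (background 0.732%). These counts, and their backgrounds, do not ask for detection. Gpr35 was not well above background on any control or IL-13 array or on the 12 h combination array, and Adgrg3 and Gpr160 were not on the 12 h IL-13 array, so a 2-fold difference at both times is not established for them in the comparisons that use those arrays.

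Of 43 tested genes for proteins that carry receptor signals, 6 were called with both agents (14.0%, against 8.45% of all genes). Of 10 tested G-protein alpha subunits, 1 rose with both agents (Gna15, by 0.71 ± 0.12, limma adjusted p = 0.0281) and 2 fell (Gnai1 by 0.81 ± 0.13, adjusted p = 0.0274, and Gnai2 by 0.60 ± 0.12, adjusted p = 0.0459). Gnai1 and Gnai2 inhibit adenylyl cyclase, and Gna15 activates phospholipase C in blood cells. Of 11 beta and gamma subunits, Gng2 fell by 0.73 ± 0.15 (adjusted p = 0.0499). Of 15 enzymes of cyclic AMP, the phosphodiesterase Pde4b rose by 0.95 ± 0.14 (adjusted p = 0.0237) and the kinase subunit Prkar2b fell by 0.72 ± 0.12 (adjusted p = 0.0309). In the other 4 treatment comparisons 0 genes of these lists were called. The 7 receptor kinases and arrestins had 0 calls in any treatment comparison, and their largest differences were -0.77 for Grk3 and 0.58 for Arrb2, both with ATRA against control. Median differences with both agents were -0.01 for alpha subunits, -0.01 for beta and gamma subunits, -0.29 for cyclic AMP enzymes and -0.02 for kinases and arrestins, against -0.03 over all genes.

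As these are bulk measurements, fewer cells of a kind and less RNA per cell cannot be told apart. Levels of different probes are not comparable with each other, so no order of these receptors by abundance is given.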

How the data were processed

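Per the labels' protocols, total RNA of RAW264.7 cells was labelled with Cy3. The arrays (design 014868) were read with Agilent Feature Extraction 10.7.1.1, per the file headers, and the deposited processed signal is an intensity after background subtraction, with no normalization between arrays. The deposited flags of each spot (other: 0 or 1) were read as well. The authors also deposited a table of log2 values, whose 8 columns share a minimum of 0.752 and a maximum of 18.2 and have medians of 4.57 to 4.58. Their scaling method is not given in the sources used here, and they served as an alternative only.

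Control spots were removed (43379 spots of 41174 probes remained), outlying or non-uniform spots were set to missing, repeats were averaged, 49 probes with missing values were left out, and each array was scaled to its 75th percentile, from 448 to 739. A probe stayed in where both arrays of some treatment were well above background (24017 probes), and each gene's brightest probe was used (15440 genes). Names came from RefSeq by accession for 27668 probes, by symbol for 5589 and by synonym for 471, and 7446 kept their name. limma 3.58.1 in R 4.3.3 fitted 4 treatments and time over 8 arrays, with 3 residual degrees of freedom and a prior of 2.4, two-sided. A second fit, for effects that change with time, left 1 residual degree of freedom. Replicate 1 is the 12 h and replicate 2 the 24 h array, so the time term is the block. "At least N-fold" sets the brighter group's mean against, per array, the higher of the dim probe's signal and the lowest signal well above background. On simulated data for IL-13 against control (15440 genes), 53 of 100 genes changed by 1 log2 unit and 99 of 100 changed by 2 were recovered, with 6 false calls. The simulated noise was normal and independent, with its size set from the limma standard errors. Genes were shifted under IL-13 only, and no effect of time or slide was included. These figures check the code and do not give the recovery on the real arrays.

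With 2 arrays per treatment, precision is limited by their number. The genes, the lists and their classes were chosen with earlier results of these data known, and the motifs after the files were read. Values on every array are given for called genes and for the 3 largest differences each way in each treatment comparison, and tested genes are named, apart from a few genes that are not reported here. Of the lists of signalling proteins, the called genes are named, and the 2 largest differences where none was called. The alternatives were normexp background (offset 50), quantile scaling, the authors' values, other filters, the mean of all probes, other models, and leaving out each array.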

Additional observations from a re-analysis of the deposited data

Results flagged for a closer look

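For Adgrg3 the difference of ATRA from control was -3.10 at 12 h and 1.09 at 24 h, in opposite directions and at least 2-fold at both times. Each is a difference between 2 single arrays, and a test of the ATRA effect between the times gave an adjusted limma p of 0.668. With 1 residual degree of freedom, that test cannot decide whether the effect changed.

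Among genes below the filter, Adgrd1 was well above background on 2 arrays of treated cells, those of IL-13 and of IL-13 with ATRA at 24 h, and on 0 control arrays. Gpr137c was well above background on 2 arrays of treated cells, those of ATRA and IL-13 at 24 h, and on 0 control arrays.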

How the results depend on the processing

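Over the 15 genes that the naming rule selects and 5 treatment comparisons there were 75 results. Of these, 15 were calls, and only those could lose a call. The alternatives and the refits without 1 array kept the side of the threshold in 1250 cases, lost the call in 114 and gained one in 46. Most cases that kept their side were uncalled results that stayed uncalled. All lost calls fell on the 15 calls, each of which was lost in some refits without 1 array. Each was also lost under 1 to 8 of its 10 or 11 other settings. Of the called differences, 0 changed sign. Some uncalled differences near 0 did, such as that of Gpr35 with IL-13 against control, 0.06 in the main fit and -0.09 with normexp background. Counts of called genes moved more. With no filter on dim probes 0 of the receptor genes were called in each treatment comparison. Of all 27321 genes then tested, 22 rose and 6 fell with both agents against control, and 6 were higher and 1 lower against IL-13 alone. IL-13 against control had 1 rise and 0 falls, ATRA against control 0 of either. Both agents against ATRA had 3 higher and 0 lower. For IL-13 against control (2 called), the count was 1 with normexp background, with the mean of all probes and with no replicate block (no time term), 0 with only the arrays compared, and 4 with a filter for all 8 arrays and with trend and robust settings. For ATRA against control (3 called), it was 6 with normexp background, a filter for all 8 arrays and time as a random block, 5 with no replicate block and with only the arrays compared, and 8 with trend and robust settings. Here 136 of all genes rose and 142 fell in the main fit. The numbers were 161 and 206 with normexp background, 182 and 250 with a filter for all 8 arrays, and 174 and 206 with time as a random block. They were 132 and 132 with no replicate block, 111 and 141 with only the arrays compared, and 273 and 348 with trend and robust settings. For IL-13 with ATRA against control (8 called), it was 5 with only the arrays compared and 6 with no replicate block. In the main fit 464 of all genes rose and 841 fell. With only the arrays compared these were 296 and 613, and with no replicate block 430 and 701. For IL-13 with ATRA against IL-13 (2 called), it was 1 with quantile scaling, the authors' log2 values and only the arrays compared, and 6 with trend and robust settings. Among all genes 170 were higher and 228 lower in the main fit, 171 and 219 with quantile scaling. These were 170 and 219 with the authors' values, 11 and 2 with only the arrays compared, and 322 and 495 with trend and robust settings. For IL-13 with ATRA against ATRA (0 called), it was 1 with a filter for all 8 arrays, Gpr179. There 41 of all genes were higher and 15 lower in the main fit, and 52 and 36 with that filter. For the time-dependence of an effect (0 called), it was 1 with normexp background. The cause of these moves was not tested. Leaving out 1 array gave counts of 0 to 3 for IL-13, 0 to 3 for ATRA, 0 to 9 for both agents against control, and 0 to 2 against IL-13. The alternatives for the time-dependence were chosen after seeing the data. Signals near background, as for Gpr158, Gpr35 and the adhesion receptors, limit what can be said of those genes.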
